A study of Mus musculus with 69 samples.

Results

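The comparison described here is that of 200M with WT pituitary in young female mice, across all genes. Its members are the 7 libraries that the sample labels place in those groups, 4 from 200M and 3 from WT mice, of 69 libraries in the series. Each library is bulk RNA-seq of 1 gland from a different mouse. Both groups were virgin females aged 8 to 12 weeks on a C57BL/6J background, euthanized at proestrus, the stage of the estrous cycle that precedes ovulation. WT mice have unaltered Zeb1 alleles. In 200M mice both Zeb1 alleles are knock-in alleles, with point mutations in the 3′ UTR at the predicted sites of miR-200a and miR-200b, so that Zeb1 protein is unaltered in sequence and the change is present in every cell of the animal. The knock-in lines came from separate embryonic stem cell clones, and the labels do not say which clone a library belongs to. Libraries are named by genotype and replicate number. The count column of 1 WT library carries a number that fits no WT label, and that library is called WT replicate u. Values are given in the order replicate 1, 2 and u for WT and replicate 1, 2, 3 and 4 for 200M, as CPM, the usual read count corrected for sequencing depth, after scaling of the libraries by the TMM method.

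ZEB1 is a zinc-finger transcription factor that represses genes of the epithelial state, among them genes of cell junctions, and is best known from the epithelial-mesenchymal transition. The miR-200 family lowers ZEB1, and ZEB1 in turn represses the miR-200 genes. The anterior pituitary is an endocrine epithelium whose cell types each secrete their own hormones, and its gonadotropes release luteinizing hormone and follicle-stimulating hormone under the control of GnRH from the hypothalamus.

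The mature sequences below show what the sites would pair with when not mutated. They are printed 5′ to 3′ from RefSeq on GRCm38.p6, with the seed (bases 2 to 8) in capitals. The first 3 share one seed and the other two share another. The seeds differ by the single substitution U4C, counted from 1 at the 5′ end of the microRNA and written from the miR-200b seed to the miR-200a seed.
miR-200b-3p (chr4:156055685-156055706, minus strand): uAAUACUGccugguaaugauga
miR-200c-3p (chr6:124718324-124718346, minus strand): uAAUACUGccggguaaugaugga
miR-429-3p (chr4:156053916-156053937, minus strand): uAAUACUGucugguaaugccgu
miR-200a-3p (chr4:156054911-156054932, minus strand): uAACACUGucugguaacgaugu
miR-141-3p (chr6:124717917-124717938, minus strand): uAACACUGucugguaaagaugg

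The 7 libraries held 7560888 to 13342430 counts each. Libraries of a group differed by more than sampling noise, with a chi-square per degree of freedom of 3.2 or higher for each pair, so that none was a copy of another. The first principal component held 50.1% of the variance and separated the genotypes. The defining genes of the anterior pituitary were all expressed, with Gh at 25348 to 31586 CPM in WT and 24134 to 35953 CPM in 200M. Hypothalamic neuropeptide mRNAs were near background, as 2 of 10 passed the filter on low counts, the 10 together summed to 2.28 to 5.63 CPM per library, and Crh was at 0. Prl alone took 12.5 to 14.5% of all counts in WT and 4.06 to 6.17% in 200M. The WT replicate 2 and 200M replicate 4 libraries had the highest Fos and Egr1 of their groups.

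Zeb1 mRNA was higher in every 200M library than in every WT library, and the transcripts that host the miR-200 clusters were lower. Zeb1 (ENSMUSG00000024238, chr18:5591860-5775467, plus strand, GRCm38) was at 96.8, 94.1 and 94.02 CPM in WT and at 131, 135, 140.4 and 139 CPM in 200M. It thus rose 1.44-fold (log2 fold change 0.52, SE 0.06, adjusted p = 3.66e-06), where p-values are from edgeR's quasi-likelihood test with Benjamini-Hochberg adjustment over all genes tested. Gm13648 (ENSMUSG00000086549, chr4:156052715-156059802, minus strand), the annotated transcript that spans Mir200b, Mir200a and Mir429, was at 15.3, 17.3 and 14.3 CPM in WT and 1.98, 2.297, 2.25 and 2.53 CPM in 200M. It fell in all 4 mutant libraries, with no overlap of the groups (log2 fold change −2.79, SE 0.17, adjusted p = 6.58e-10). It lies over Ttll10 on the same strand, so that reads of the shared stretch cannot be told apart. Gm15884 (ENSMUSG00000087327, chr6:124715573-124718831, minus strand), which spans Mir200c and Mir141, was near the detection limit, at 2.31, 2.76 and 1.58 CPM in WT and 0.152, 0.985, 0.363 and 0.886 CPM in 200M. It fell as well (log2 fold change −1.95, SE 0.47, adjusted p = 0.00499), and it overlaps Gm29008 on the same strand.

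The other transcription factors of the epithelial-mesenchymal transition did not pass the test with all libraries. Zeb2, the paralog of Zeb1, was at 52.9, 49.7 and 44.6 CPM in WT and 54.9, 52.01, 50.2 and 68.96 CPM in 200M, and the groups overlapped (log2 fold change 0.20, SE 0.10, adjusted p = 0.202). Scaled by library totals alone, Zeb2 passed at 0.32 (adjusted p = 0.0397). Snai2 was at 30.5, 28.4 and 42.6 CPM in WT and 23.1, 14.6, 11.4 and 8.604 CPM in 200M. Each 200M library was below each WT library, but the difference did not pass (log2 fold change −1.20, SE 0.35, adjusted p = 0.062). Snai2 passed with DESeq2 (adjusted p = 0.0123) and without 200M replicate 1, where it was −1.53 (adjusted p = 0.000186). Log2 fold changes were 0.19 for Snai1 (adjusted p = 0.716) and 0.87 for Twist1 (adjusted p = 0.232), whereas Snai3 and Twist2 were under the filter on low counts.

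**Figure D1:**
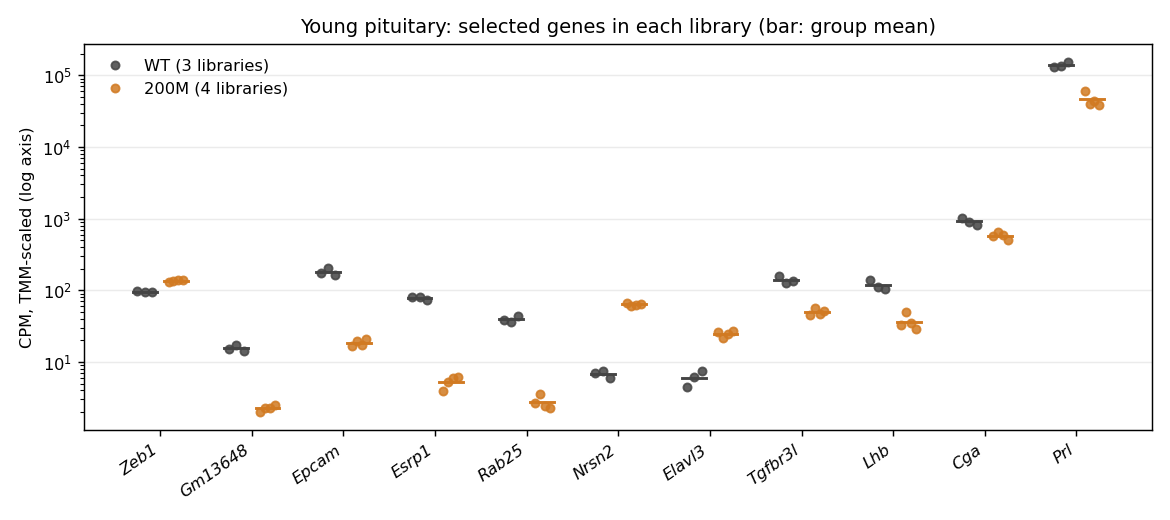
Level of 11 genes in each of the 7 young pituitary libraries, as TMM-scaled CPM on a log axis, with 1 point per library and a short bar at each group mean (WT, n = 3; 200M, n = 4). The 200M points lie above the WT points for Zeb1, Nrsn2 and Elavl3 and below them for the other 8 genes, and Epcam, Esrp1 and Rab25 show the widest gaps among the lowered ones.

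Genes of many kinds were called beside Zeb1. Of 18199 genes tested, 2134 were raised (11.7%) and 1837 were lowered (10.1%) in 200M, 3971 in all (21.8%), and 3377 of these are protein-coding. The groups did not overlap in CPM in 2839 genes with 200M higher (15.6%) and in 2554 with 200M lower (14%). Most changes were modest, with a median log2 fold change of 0.60 among raised and −0.51 among lowered genes. Changes of over 2-fold numbered 513 raised (2.82%) and 424 lowered (2.33%), and lowered genes were the more numerous past 4-fold, with 103 against 70, and past 8-fold, with 29 against 18. With libraries scaled by their totals alone, the split was 3687 raised and 1091 lowered, 77.2% raised against 53.7% under TMM scaling, since the median log2 fold change of all genes then moved from 0.00 to 0.12. Without a filter on low counts it was 2388 raised and 1543 lowered. Leaving out a library gave 2983 genes (without WT replicate u) to 3884 (without 200M replicate 4).

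**Figure D2:**
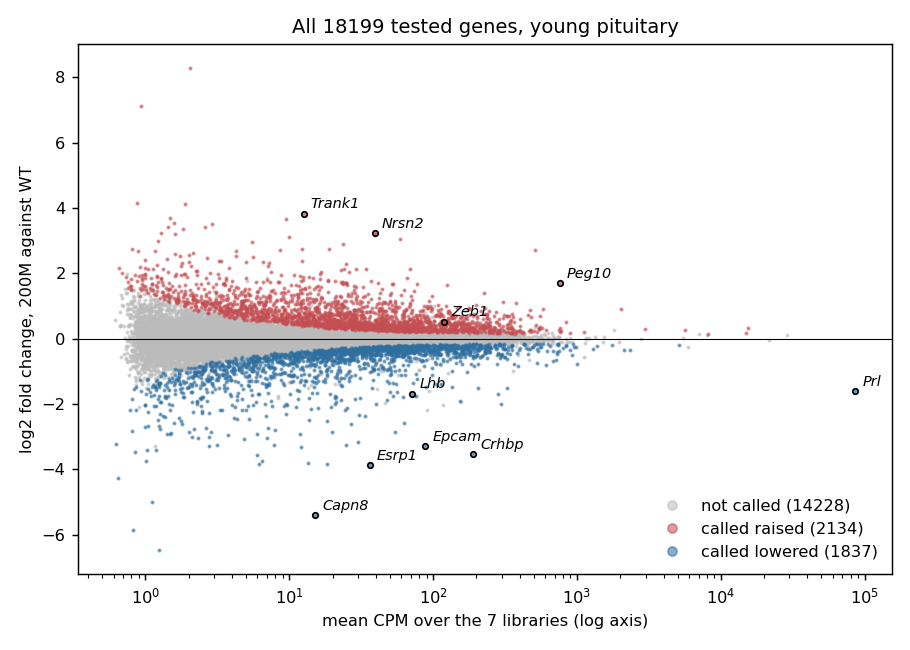
Log2 fold change of 200M against WT (y axis) by the mean CPM over the 7 libraries (x axis, log scale) for all 18199 tested genes, with 2134 called raised in red, 1837 called lowered in blue and the remainder in grey. Epcam, Esrp1 and Capn8 lie far below 0, Nrsn2 and Trank1 far above, and Zeb1 among the modest changes at 0.52.

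The lowered genes of smallest p included several known from epithelia. Epcam (ENSMUSG00000045394, chr17:87635979-87651129, plus strand), the epithelial cell adhesion molecule, was at 177, 205 and 162 CPM in WT and 16.7, 19.9, 17.3 and 20.9 CPM in 200M, 9.78-fold lower (log2 fold change −3.29, SE 0.09, adjusted p = 2.39e-14). Esrp1 (ENSMUSG00000040728, chr4:11331933-11386783, minus strand), the splicing regulator of epithelial cells, was at 80.5, 79.5 and 72.5 CPM in WT and 3.88, 5.25, 5.96 and 6.20 CPM in 200M (log2 fold change −3.88, SE 0.12, adjusted p = 2.39e-14). Rab25 (ENSMUSG00000008601, chr3:88542029-88548300, minus strand), a small GTPase of apical recycling, was at 38.4, 36.4 and 43.2 CPM in WT and 2.67, 3.61, 2.398 and 2.28 CPM in 200M (log2 fold change −3.83, SE 0.15, adjusted p = 4.81e-13). In each of these genes the lowest WT library was several times the highest 200M library. Tmc4 (ENSMUSG00000019734, chr7:3665790-3677553, minus strand), of the TMC family of membrane proteins, was at 112, 103 and 105 CPM in WT and 17.6, 14.2, 14.5 and 12.02 CPM in 200M (log2 fold change −2.86, SE 0.10, adjusted p = 8.37e-14). It shares its strand with the overlapping gene Leng1. Galnt3 (ENSMUSG00000026994, chr2:66082766-66124994, minus strand), an enzyme that starts mucin-type O-glycosylation, was at 31.2, 25.4 and 29.9 CPM in WT and 2.59, 2.05, 1.38 and 2.28 CPM in 200M (log2 fold change −3.81, SE 0.17, adjusted p = 6.23e-12).

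By size of change, Capn8, a calpain protease, stood lowest among genes with a mean of at least 5 CPM in a group. It was at 33.96, 25.9 and 42.3 CPM in WT and 0.838, 1.395, 0.291 and 0.633 CPM in 200M (log2 fold change −5.41, SE 0.29, adjusted p = 4.99e-08). Esrp1, Rab25 and Galnt3, described above, came next, and then Kdf1 (log2 fold change −3.75, adjusted p = 6.44e-10), Fam187b (−3.57, adjusted p = 1.82e-09) and Ap1m2 (−3.31, adjusted p = 3.97e-08), which encodes the epithelial form of a clathrin adaptor subunit. Crhbp, the binding protein of corticotropin-releasing hormone, lay between Fam187b and Ap1m2 by size, at 382, 482 and 325 CPM in WT and 32.8, 21.7, 42.6 and 39.98 CPM in 200M (log2 fold change −3.54, SE 0.27, adjusted p = 0.000575). It is not known as an epithelial gene. By p, the list of lowered genes also held Tmem184a (log2 fold change −3.27), Vwde (−3.16), Dmrta1 (−2.37), Spint1, an inhibitor of surface serine proteases (−2.13), Cdcp1 (−2.60), the desmosomal cadherin Dsg2 (−1.78) and the guanine nucleotide exchange factor Arhgef5 (−1.87), with adjusted p between 1.31e-12 and 6.25e-11 for the last 4.

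Epithelial genes were counted in 3 lists. These and the lists below were drawn up with earlier results of these data known, so their counts are descriptions only. They stand beside 11.7% raised and 10.1% lowered among all genes tested. Of 32 tested genes of epithelial junction, adhesion and polarity, 23 were lowered, 0 were raised and 9 did not pass, with a median log2 fold change of −1.02 where that of all genes was 0.00. The summed level of the list was 1091 to 1172 CPM in WT and 589 to 637 CPM in 200M. Lsr, which builds tricellular junctions, fell by 2.85 and Patj, a polarity scaffold, fell by 1.12 on the log2 scale. Cdh1, the epithelial cadherin, was not among the lowered genes, at 12.3, 12.6 and 15.3 CPM in WT and 15.99, 10.3, 14.7 and 14.3 CPM in 200M, and the groups overlapped (log2 fold change 0.05, SE 0.15, adjusted p = 0.865). Tjp1 (log2 fold change −0.03) and Mpp7 (−0.27), the most abundant members that did not pass, had overlapping groups.

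Of 23 tested genes of epithelial membrane traffic, surface proteases and receptors, 18 were lowered and 1 was raised, with a median of −1.33. The list includes Capn8, Rab25, Tmc4, Galnt3 and Cdcp1, which are described above for their changes in these data. The raised one was Prom2 (log2 fold change 0.50, SE 0.12, adjusted p = 0.00385), a membrane protein of cell protrusions, at 17.7, 15.1 and 14.3 CPM in WT and 19.96, 22.9, 22.97 and 23.3 CPM in 200M. Among 10 tested epithelial transcription factors and splicing regulators 5 were lowered and 0 raised, with a median of −0.79. Ehf, an epithelial ETS factor, fell by 2.12 and Klf5 fell by 0.65 on the log2 scale (adjusted p = 0.000155 and 0.00313). Grhl1 (−0.48, adjusted p = 0.326) and the RNA-binding protein Rbm47 (0.00, adjusted p = 0.993) did not pass.

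**Figure D3:**
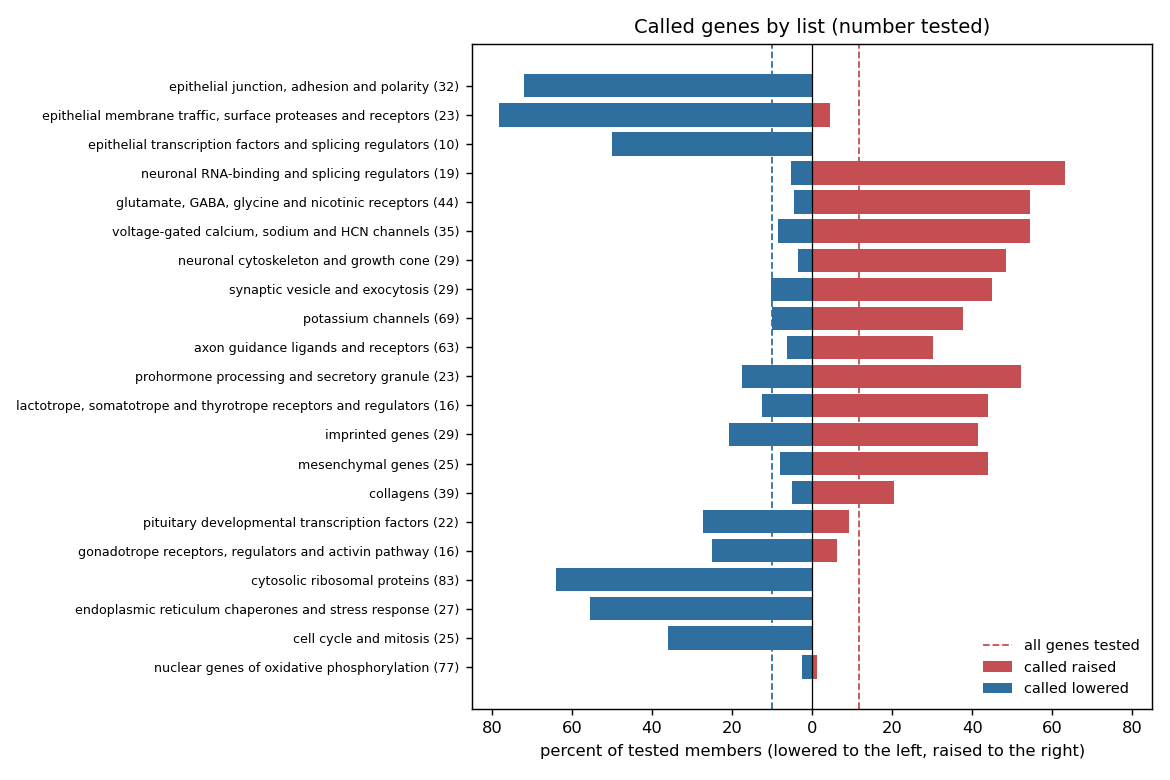
Share of the tested members of each gene list that were called lowered (bars to the left) or raised (bars to the right) in 200M, in percent, with the number of tested members beside each name and dashed lines at the shares over all genes tested (10.1% lowered, 11.7% raised). The epithelial lists extend to the left, at 71.9%, 78.3% and 50% lowered, and the neuronal and ion channel lists extend to the right, at 30.2% to 63.2% raised. The lists were drawn up with earlier results of these data known.

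ZEB proteins bind E-box hexamers such as CACCTG, so promoters were searched for it. The paper gives the consensus as CAGGTR, where R is A or G. Sites of the form CAGGTA were neither counted nor marked. The window was 300 bases, from 250 before to 50 after the RefSeq start site on GRCm38.p6, and 11582 tested genes had one. The motif was read on both strands, where its other strand is CAGGTG. It occurred in 20% of the windows of all 27025 genes and in 17.9% of those of tested genes. Among lowered genes 24.7% of 1288 windows held it, among raised genes 17.1% of 1441 and among genes not called 17% of 8853. For genes lowered over 2-fold the share was 41.1%, 106 of 258, and for genes raised over 2-fold it was 20.3%, 60 of 295. At least 2 matches were found in 14.7% of the windows of genes lowered over 2-fold and in 2.28% of those of all tested genes. The share of genes called lowered was 10.2% with no match, 13.7% with 1, 25% with 2 and 36.1% with 3 or more, the last over 36 genes. A different E-box hexamer, CAGCTG, which cannot match at the same place, was found in 20.5% of windows of genes lowered over 2-fold and 15.2% of those of tested genes. Such a match is a description of the sequence, and no binding was measured.

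**Figure D4:**
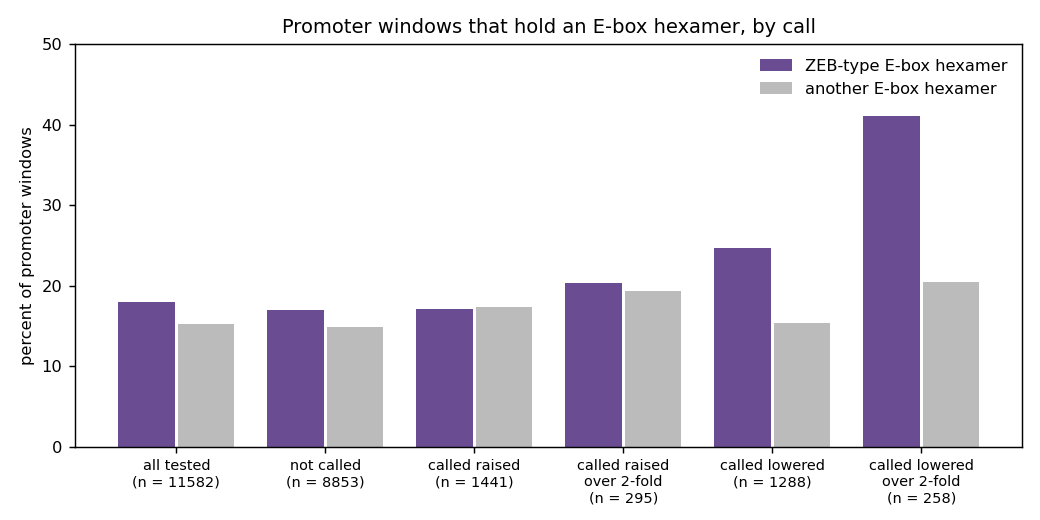
Percent of 300-base promoter windows (y axis) that hold the ZEB-type E-box hexamer (purple) or another E-box hexamer (grey), for groups of genes by their call in 200M against WT, with the number of windows under each group. The purple bar is at 17% for genes not called and at 41.1% for genes lowered over 2-fold, and the grey bars lie between 14.8% and 20.5%.

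The junction list held the motif in 14 of 19 windows (73.7%), the membrane traffic list in 9 of 16 (56.2%) and the list of epithelial transcription factors and splicing regulators in 1 of 4 (25%). As the lists were drawn up with earlier results known, these shares are descriptions only. The stretches printed here are from strongly lowered genes, from the host of the chromosome 4 miR-200 cluster and from 2 gonadotrope genes described further on. All were chosen among lowered genes whose window holds the motif, so its presence in them is no result. Lhb, Tgfbr3l, Cga and Prl were sought by name, and Cga and Prl gave no stretch. The stretches read 5′ to 3′ on the strand of the gene, with the motif or its other strand in capitals. The window of Rab25 holds both forms within 1 stretch.
Epcam (chr17:87635780-87635809, plus strand): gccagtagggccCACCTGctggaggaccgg
Epcam (chr17:87635948-87635977, plus strand): acccataaaaccCAGGTGtggaggagaagc
Rab25 (chr3:88548326-88548355, minus strand): catcgctccaccCACCTGtgcccCAGGTGc
Tmc4 (chr7:3677571-3677600, minus strand): tcacctagtggcCAGGTGcagacctgtagc
Galnt3 (chr2:66124833-66124862, minus strand): cggcccgcggctCACCTGgagcgctcaggt
Lsr (chr7:30973521-30973550, minus strand): gaggcaggagcgCACCTGagtcagcccact
Gm13648 (chr4:156059903-156059932, minus strand): ccccgagggacaCACCTGtttgggggccag
Gm13648 (chr4:156059857-156059886, minus strand): gcaggcaacagaCACCTGcactgggcgggg
Lhb (chr7:45420746-45420775, plus strand): gctaagccctgaCACCTGggccgagtgtga
Lhb (chr7:45420911-45420940, plus strand): caggtataaagcCAGGTGcccaaggtaggg
Tgfbr3l (chr8:4248224-4248253, plus strand): gtacagcccagcCAGGTGctcgctgccggt

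Genes best known from neurons led the raised side. Nrsn2 (ENSMUSG00000059361, chr2:152368755-152376638, minus strand), a neurensin, which is a vesicle membrane protein of neurons, was at 7.03, 7.39 and 5.903 CPM in WT and 65.8, 60.3, 63.2 and 64.9 CPM in 200M, 9.37-fold higher (log2 fold change 3.23, SE 0.11, adjusted p = 6.04e-14). Trank1 (ENSMUSG00000062296, chr9:111311739-111395775, plus strand) was at 1.61, 1.98 and 0.843 CPM in WT and 24.8, 19.8, 20.3 and 18.9 CPM in 200M (log2 fold change 3.82, SE 0.21, adjusted p = 1.58e-10). Nrsn1, the other neurensin, started from a higher level and rose less, from 112 to 121 CPM in WT to 148 to 169.7 CPM in 200M (log2 fold change 0.50, SE 0.07, adjusted p = 1.34e-05). All 3 had no overlap between the groups, which held for 15.6% of all genes tested with 200M higher. They were listed with earlier results of these data known, so their lack of overlap is no result.

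The raised genes of smallest p otherwise comprised Faim2, an inhibitor of Fas-mediated death in neurons (log2 fold change 2.12, adjusted p = 8.33e-12), Lrrc4b, a synaptic adhesion protein (2.13, adjusted p = 6.34e-10), Apc2, the neural homolog of Apc (2.09, adjusted p = 3.37e-10), Dnm1, the dynamin of synaptic vesicle recycling (1.85, adjusted p = 1.08e-11), Vat1l (1.77, adjusted p = 1.73e-10), Dpp6, an auxiliary subunit of Kv4 channels (1.64, adjusted p = 1.42e-11) and Basp1, a growth cone protein (1.31, adjusted p = 4.59e-10). Peg10 and Nnat, which are imprinted, are described further on. Other genes with large rises were Vsnl1, a neuronal calcium sensor (log2 fold change 3.66, SE 0.32, adjusted p = 2.22e-06), which was at 0.603, 1.65 and 1.48 CPM in WT and 22.1, 14.8, 14.2 and 11.1 CPM in 200M, Akap6, an anchor of protein kinase A (log2 fold change 3.04, SE 0.21, adjusted p = 2.84e-05), at 7.23, 14.7 and 12.5 CPM in WT and 104, 85.6, 102 and 83.4 CPM in 200M, and Grin2b, an NMDA receptor subunit (log2 fold change 2.89, SE 0.26, adjusted p = 5.06e-05), at 3.21, 7.05 and 5.06 CPM in WT and 46.8, 28.4, 40.05 and 35.3 CPM in 200M. Akr1cl, an aldo-keto reductase (3.10, adjusted p = 1.37e-08), and Crisp1, a secretory protein of the reproductive tract (2.95, adjusted p = 2.98e-06), were raised too and are not neuronal.

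Called raised genes without a single count in WT numbered 2, and both were chosen for mention after their values were seen. Bpifa2, a secretory protein of the salivary gland, was at 4.49, 3.94, 3.34 and 2.40 CPM in 200M, at least 33.7-fold higher than the 0.105 CPM that 3 counts over the WT group would give (adjusted p = 6.5e-07). Stmn4, a neuronal stathmin, was at 1.83, 1.07, 1.38 and 2.28 CPM, at least 15.6-fold higher (adjusted p = 6.09e-05). No lowered gene was without counts in 200M, and both genes are of low level.

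RNA-binding proteins of neurons shape neuronal splicing and mRNA stability. Of 19 tested neuronal RNA-binding and splicing regulators, 12 were raised and 1 lowered, with a median of 0.41. Elavl3, a Hu protein of neurons, was at 4.42, 6.17 and 7.38 CPM in WT and 26.1, 21.9, 24.3 and 26.9 CPM in 200M (log2 fold change 2.05, SE 0.16, adjusted p = 1.03e-08). Celf5 (1.69, adjusted p = 3.81e-09), Rbfox1 (1.53, adjusted p = 1.08e-06) and Celf4 (0.85, adjusted p = 1.32e-07) were raised too, and the 1 lowered gene was Ptbp1, which holds back neuronal exons (−0.35, adjusted p = 0.000171). Rest, the repressor of neuronal genes, was at 13.6, 14.2 and 11.5 CPM in WT and 11.2, 11.8, 13.01 and 14.8 CPM in 200M, with overlapping groups (log2 fold change −0.05, SE 0.14, adjusted p = 0.84). Among 29 genes of the neuronal cytoskeleton and growth cone 14 were raised and 1 lowered, with a median of 0.33. Map2 (0.90, adjusted p = 7.51e-10), Dcx (1.12, adjusted p = 2.94e-08), Gap43 (2.38, adjusted p = 1.79e-05) and Mapt (0.83, adjusted p = 2.84e-06), which bind microtubules or mark growing axons, were among the raised ones, and the lowered one was Dclk1 (−0.68, adjusted p = 5.58e-08). Map1b and Kif1a, which are highly expressed, did not pass, with log2 fold changes of 0.26 and −0.04.

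Of 29 genes of synaptic vesicles and exocytosis, 13 were raised and 3 lowered, with a median of 0.24. Dnm3 (0.83, adjusted p = 3.23e-08) and Syt11 (0.71, adjusted p = 4.34e-07) were raised, whereas Syt4 (−0.33, adjusted p = 0.00403), Unc13b (−0.55, adjusted p = 0.000171) and Pclo (−0.22, adjusted p = 0.0131) were lowered. Pclo missed the threshold without WT replicate u (−0.12, adjusted p = 0.128) or 200M replicate 3 (−0.21, adjusted p = 0.054). Among 23 genes of prohormone processing and secretory granules 12 were raised and 4 lowered, with a median of 0.19. The small GTPase Rab3b (1.09, adjusted p = 8.82e-09) and the granule proteins Resp18 (0.89, adjusted p = 2.17e-09) and Ptprn (0.50, adjusted p = 1.57e-05) were raised, as was Cadps, which primes granules for release (0.70, adjusted p = 8.02e-07). Its paralog Cadps2 was lowered (−0.62, adjusted p = 8.21e-06), together with Rab3d (−1.20, adjusted p = 1.38e-06), Rab27a (−0.38, adjusted p = 0.000523) and Syt7 (−0.26, adjusted p = 0.00132). The list therefore held paralogs with opposite changes.

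Ion channels and transmitter receptors set the excitability of neurons and of endocrine cells. Of 69 tested potassium channels, 26 were raised and 7 lowered, with a median of 0.38. The raised ones included the two-pore channels Kcnk2 (0.93, adjusted p = 3.61e-08), Kcnk9 (0.91, adjusted p = 9.05e-08) and Kcnk3 (1.42, adjusted p = 2.07e-07) and the ether-a-go-go channel Kcnh7 (1.59, adjusted p = 2.02e-07). Other two-pore channels, Kcnk1 (−0.67, adjusted p = 0.000216), Kcnk6 (−0.87, adjusted p = 0.000994) and Kcnk12 (−1.07, adjusted p = 0.000143), were lowered, so that the subfamily did not move as 1. Of 35 voltage-gated calcium, sodium and HCN channels, 19 were raised and 3 lowered, with a median of 0.35. Cacna1i, a T-type calcium channel (1.08, adjusted p = 3.45e-08), Cacna1b, the N-type channel (0.71, adjusted p = 8.79e-07), and the sodium channel Scn2a (0.94, adjusted p = 9.38e-07) were raised. Cacna1f (−0.74, adjusted p = 0.00503), Scn4a (−0.99, adjusted p = 0.000814) and Scn8a (−0.25, adjusted p = 0.0168) were lowered, the last not without WT replicate 2 or without 200M replicate 1, 2 or 3 (−0.23 to −0.22), and Cacna1d, abundant in this tissue, did not pass (−0.05, adjusted p = 0.625).

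Of 44 receptors of glutamate, GABA, glycine and acetylcholine, 24 were raised and 2 lowered, with a median of 0.45. The summed level of this list was 1841 to 2083 CPM in WT and 2586 to 2659 CPM in 200M. GABA-A receptor subunits Gabrb1 (0.93, adjusted p = 1.32e-07) and Gabrg3 (1.62, adjusted p = 1.38e-07) and the AMPA receptor subunit Gria2 (0.62, adjusted p = 3.28e-07) were raised. Grm5 (−0.49, adjusted p = 0.0323) and Grik2 (−0.27, adjusted p = 0.0351), both glutamate receptors, were the lowered ones. Neither passed without WT replicate 2, where they were at −0.25 and −0.13, or without any single 200M library. Of 63 axon guidance ligands and receptors, 19 were raised and 4 lowered, with a median of 0.25. Slit1 (0.86, adjusted p = 1.71e-05), Plxna2 (0.48, adjusted p = 0.000636), Sema6c (1.13, adjusted p = 9.12e-05) and Unc5d (1.02, adjusted p = 0.000474) were raised, and Plxnb1 (−0.65, adjusted p = 6.09e-07), Plxnb2 (−0.26, adjusted p = 0.00317), Robo1 (−0.31, adjusted p = 0.00185) and Epha1 (−1.80, adjusted p = 0.000326) were lowered.

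Of 7 hormone genes 3 were lowered and 0 raised. Lhb (ENSMUSG00000100916, chr7:45420820-45421897, plus strand), the beta subunit of luteinizing hormone, was at 139, 110.5 and 103 CPM in WT and 32.8, 49.3, 34.7 and 28.9 CPM in 200M, 3.21-fold lower (log2 fold change −1.68, SE 0.20, adjusted p = 0.00108). Each 200M library was below each WT library. Fshb, the beta subunit of follicle-stimulating hormone, was at 90.7, 116 and 59.2 CPM in WT and 62.0, 90.9, 76.5 and 96.9 CPM in 200M, with the groups overlapping (log2 fold change −0.12, SE 0.28, adjusted p = 0.816). Cga, the alpha subunit that both share, was at 1018, 902 and 819 CPM in WT and 563, 642, 593 and 503 CPM in 200M (log2 fold change −0.66, SE 0.09, adjusted p = 0.000205). The groups did not overlap in Cga. Gnrhr, the receptor of GnRH, did not pass (log2 fold change 0.20, SE 0.14, adjusted p = 0.362), at 145 to 211 CPM in WT and 182 to 229.9 CPM in 200M, although it did without WT replicate 2 (0.37, adjusted p = 0.00882). In bulk tissue, fewer cells of a type and less RNA per cell cannot be told apart.

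Prl, the hormone of lactotropes, was at 131338, 133155 and 155485 CPM in WT and 60757, 39659, 44448 and 38876 CPM in 200M (log2 fold change −1.61, SE 0.19, adjusted p = 0.00312). The groups were far apart. Gh was at 31586, 25348 and 26127 CPM in WT and 24134, 32098, 35953 and 26780.4 CPM in 200M, with full overlap (log2 fold change 0.10, SE 0.17, adjusted p = 0.741). Pomc, the precursor of corticotropin, and Tshb, the beta subunit of thyrotropin, did not pass (log2 fold changes 0.01, adjusted p = 0.989 and 0.34, adjusted p = 0.175). Tshb did pass without WT replicate u (0.48, adjusted p = 0.0435), with DESeq2 (adjusted p = 0.0385) and with scaling by totals (0.46, adjusted p = 0.0321). The median of the 7 hormone genes was −0.12, and it was 0.00 under scaling by library totals.

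Among 16 tested gonadotrope receptors, regulators and activin pathway genes 1 was raised (6.25%) and 4 were lowered (25%), with a median of −0.13. Over all genes tested the shares were 11.7% and 10.1%. Tgfbr3l (ENSMUSG00000089736, chr8:4248214-4251423, plus strand), a gonadotrope co-receptor for inhibin B, was at 157, 127 and 136 CPM in WT and 44.9, 57.5, 46.5 and 52.0 CPM in 200M (log2 fold change −1.48, SE 0.09, adjusted p = 1.4e-09). It shares its strand with the overlapping gene Gm49320. Nr5a1, the steroidogenic factor of gonadotropes, was the raised one, at 9.44, 7.496 and 9.91 CPM in WT and 17.2, 16.0, 14.8 and 17.3 CPM in 200M (log2 fold change 0.86, SE 0.14, adjusted p = 0.000142). Smad3 (−0.41, adjusted p = 0.00124), Greb1 (−0.45, adjusted p = 0.0326) and Inhba (−0.60, adjusted p = 0.0277) were the other lowered members, of which Greb1 (−0.47 to −0.34) and Inhba (−0.60 to −0.53) missed the threshold without WT replicate 1 or u and without 200M replicate 2 or 3, and the estrogen receptor Esr1 did not pass (−0.05, adjusted p = 0.607). Egr1, which carries the GnRH signal to Lhb, was at 212, 1068 and 219 CPM in WT and 93.2, 202, 98.05 and 615 CPM in 200M, and 1 library in each group stood far above the others. Its difference did not pass (adjusted p = 0.571) and had the other sign, 0.20, without WT replicate 2.

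Among 16 receptors and regulators of lactotropes, somatotropes and thyrotropes 7 were raised and 2 lowered, with a median of 0.33. Prlr, the prolactin receptor, was at 174, 234 and 178 CPM in WT and 289, 327, 311 and 330.5 CPM in 200M (log2 fold change 0.69, SE 0.10, adjusted p = 0.000273). The receptors Trhr (1.13, adjusted p = 4.8e-06) and Ghsr (0.87, adjusted p = 0.00107) and the thyroid hormone activating enzyme Dio2 (0.61, adjusted p = 1.95e-06) were raised, and Drd2, through which dopamine restrains prolactin, was lowered (−0.50, adjusted p = 1.62e-05), as was Igf1r (−0.48, adjusted p = 8.02e-07). Of 8 corticotrope and melanotrope genes 4 were raised and 0 lowered, with a median of 0.31, and 2 were raised without 200M replicate 1 or 3. Among them were Crhr1, the receptor of corticotropin-releasing hormone (1.09, adjusted p = 0.000112), and the lineage factor Tbx19 (0.49, adjusted p = 3.84e-05). Of 22 pituitary developmental transcription factors 2 were raised (9.09%, against 11.7% of all genes) and 6 lowered (27.3%, against 10.1%), with a median of −0.17. Under scaling by totals 5 were raised and 3 lowered. Six6 (−0.46, adjusted p = 0.000605), Neurod4 (−0.51, adjusted p = 0.00481), Insm1 (−0.51, adjusted p = 0.000416) and Pou1f1, the factor of the lactotrope, somatotrope and thyrotrope lineage (−0.39, adjusted p = 0.0207), were lowered. Pou1f1 missed the threshold without 200M replicate 1, 3 or 4 (−0.38 to −0.37). Lhx4 was raised from a level near 0 (log2 fold change 2.75, SE 0.68, adjusted p = 0.0061), at 0.402, 0.1102 and 0 CPM in WT and 0.762, 1.56, 1.02 and 1.77 CPM in 200M.

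Mesenchymal genes were mixed. Of 25 tested, 11 were raised and 2 lowered, with a median of 0.35, and their summed level was 1113 to 1126 CPM in WT and 1532 to 1606 CPM in 200M. Cdh11, a mesenchymal cadherin (0.99, adjusted p = 3.28e-07), Thy1 (1.10, adjusted p = 2.53e-08), Nt5e (1.24, adjusted p = 2.58e-06) and Ncam1 (0.68, adjusted p = 8.67e-09), all cell surface proteins, were raised, and several of these are also neuronal. Vim, the intermediate filament of mesenchymal cells, was at 10.2, 9.04 and 8.96 CPM in WT and 14.5, 11.2, 14.1 and 12.4 CPM in 200M (log2 fold change 0.47, SE 0.15, adjusted p = 0.0245). It missed the threshold without WT replicate 2 or u or 200M replicate 1 or 3 (0.42 to 0.44) and with DESeq2 (adjusted p = 0.0671). Lox, which crosslinks collagen, was 1 of the lowered ones (−0.82, adjusted p = 0.000632). Of 39 collagens 8 were raised (20.5%, against 11.7% of all genes) and 2 lowered (5.13%, against 10.1%), with a median of 0.31. Col24a1 (1.51, adjusted p = 1.36e-09), Col27a1 (0.69, adjusted p = 2.69e-07), Col8a1 (0.86, adjusted p = 0.000915) and Col23a1 (0.79, adjusted p = 0.000866) were raised. Col1a2, a chain of the main fibrillar collagen, was at 503, 405 and 483 CPM in WT and 138, 129, 149.8 and 164 CPM in 200M (log2 fold change −1.68, SE 0.09, adjusted p = 1.47e-08), whereas Col1a1, the other chain, had overlapping groups (log2 fold change 0.35, SE 0.31, adjusted p = 0.51).

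Imprinted genes moved in both directions. Of 29 tested, 12 were raised and 6 lowered, with a median of 0.29. Peg10 (ENSMUSG00000092035, chr6:4747306-4760517, plus strand), a retrotransposon-derived gene expressed from the paternal allele, was at 343, 366 and 291 CPM in WT and 1114, 976, 1103 and 1102 CPM in 200M (log2 fold change 1.69, SE 0.07, adjusted p = 2.13e-10). Nnat, a small membrane protein of neuroendocrine cells, was at 1336, 1409 and 1292 CPM in WT and 2656, 2725, 2398 and 2407 CPM in 200M (log2 fold change 0.92, SE 0.06, adjusted p = 3.92e-10). Blcap, within which Nnat lies (0.70, adjusted p = 1.29e-07), and Grb10 (1.03, adjusted p = 6.25e-09) were raised as well. Rian (−0.35, adjusted p = 5.28e-05), Plagl1 (−0.36, adjusted p = 0.000161), Airn (−0.33, adjusted p = 0.00525) and Asb4, a neighbour of Peg10 (−0.48, adjusted p = 0.0107, but 0.0508 without WT replicate u), were lowered, and Peg3 did not pass (−0.01, adjusted p = 0.931).

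Genes of protein synthesis and folding were counted in 2 lists. Of 83 tested cytosolic ribosomal proteins 53 were lowered and 0 raised, with a median of −0.31, which was −0.19 under scaling by library totals, with 24 lowered. Rplp0 (−0.59, adjusted p = 1.15e-05), Rpl4 (−0.38, adjusted p = 2.14e-05) and Rps2 (−0.41, adjusted p = 7.18e-05) were among them, and Eef1a1, the elongation factor that delivers tRNA, fell too (−0.34, adjusted p = 0.000183). Without WT replicate u the count was 32. Pseudogene copies of these genes are many, and how the counting treated reads shared with them is not given in the sources used here. Of 27 endoplasmic reticulum chaperones and stress genes 15 were lowered and 0 raised, with a median of −0.25, or 8 lowered under scaling by totals, among them Manf (−0.41, adjusted p = 0.000434), the stress factor Atf4 (−0.42, adjusted p = 0.000594) and the stress sensor Ern1 (−0.38, adjusted p = 0.000239). Of 77 nuclear genes of oxidative phosphorylation 1 was raised and 2 were lowered, and their median of −0.09 became 0.03 under scaling by totals, with 5 raised. Mitochondrial mRNAs that are among the most abundant raised transcripts, mt-Co1 (0.18, adjusted p = 0.0019) and mt-Nd5 (0.32, adjusted p = 0.00607), changed by little.

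Immediate early genes varied widely between libraries, and the calls of proliferation genes depended on the libraries used. Of 25 tested cell cycle genes 9 were lowered and 0 raised, with a median of −0.75, and the lowered count was 5 without WT replicate 1, without WT replicate u or without 200M replicate 3. In 12 of them the groups did not overlap, with 200M lower, which held for 14% of all genes tested. Their summed level, most of it from Ccnd2, was 1374 to 1385 CPM in WT and 1089 to 1228 CPM in 200M. Mki67 was at 31.9, 26.9 and 35.8 CPM in WT and 5.33, 13.7, 10.3 and 20.9 CPM in 200M, and it did not pass (log2 fold change −1.38, SE 0.42, adjusted p = 0.0802), but did with DESeq2 (adjusted p = 0.0254) and without 200M replicate 1 (0.0102) or 4 (0.0144). The mitotic genes Tpx2 (−1.37, adjusted p = 0.00078) and Ccna2 (−0.96, adjusted p = 0.00233) were lowered. Of 14 immediate early genes 5 were lowered and 0 raised, with a median of −1.27, and their summed level was 1591 to 3882 CPM in WT and 712 to 1700 CPM in 200M. Fos was at 17.2, 539 and 53.5 CPM in WT and 6.78, 16.2, 12.8 and 176 CPM in 200M, highest in WT replicate 2 and in 200M replicate 4 (log2 fold change −2.03, SE 1.67, adjusted p = 0.481), and without WT replicate 2 its log2 fold change was 0.49. Nr4a2 (−1.99, adjusted p = 0.0136) and Npas4 (−0.96, adjusted p = 6.09e-05) were lowered. With both those libraries left out, a choice made after the data were seen, 9 immediate early genes were lowered and 1 raised, 16 cell cycle genes were lowered and 4047 genes were called in all.

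Markers of other cell types were counted by list, beside 11.7% raised and 10.1% lowered among all genes tested. Of 10 endothelial and 5 red blood cell markers 0 were called, with summed levels of 289 to 328 CPM in WT and 331 to 345 CPM in 200M for endothelial and of 60.5 to 121 and 93.6 to 116 CPM for red blood cell markers. Scaled by library totals, 5 endothelial markers were raised. Of 9 markers of macrophages and leukocytes 4 were raised (44.4%), among them Csf1r (0.68, adjusted p = 0.00279) and Mrc1 (0.79, adjusted p = 0.00355), with sums of 137 to 145 CPM in WT and 143 to 161 CPM in 200M. Cd74, the most abundant of them (−0.22, adjusted p = 0.261), and C1qb (0.33, adjusted p = 0.115) did not pass. C1qa, another raised one, missed the threshold without WT replicate 1 or without 200M replicate 1. In the fit with a replicate block, described further on, 0 were raised. Of 8 markers of pituicytes and astrocytes, glial cells of the posterior lobe, 3 were raised (37.5%), Scn7a (0.50, adjusted p = 0.000109), Col25a1 (0.36, adjusted p = 0.00368) and Nkx2-1 (0.67, adjusted p = 0.0159, but 0.0828 without WT replicate u), and the sums were 237 to 244 CPM in WT and 285 to 329 CPM in 200M. Aqp4, an astrocyte water channel, did not pass (−0.15, adjusted p = 0.341). Fibroblast and pericyte markers had 3 raised (30%) and 1 lowered of 10, with a median of 0.28. Their sums were 801 to 905 CPM in WT and 632 to 756 CPM in 200M. The lowered one, Col1a2, made up much of these, with means of 464 CPM in WT and 145 CPM in 200M, so the sums follow that gene. Of 2 tested oligodendrocyte markers 1 was lowered, Mbp, at 56.5, 62.5 and 60.1 CPM in WT and 28.03, 28.1, 29.3 and 27.1 CPM in 200M (log2 fold change −1.08, SE 0.08, adjusted p = 8.67e-09). Of 6 markers of pituitary stem and folliculostellate cells, Lhx4 was the 1 raised, and it fell under the filter on low counts without 200M replicate 2, 3 or 4, while Sox9 (0.05, adjusted p = 0.809) and Aldh1a2 (−0.11, adjusted p = 0.512) did not pass. The part of cell makeup in the results was not tested.

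The knock-in removes miR-200 sites from 1 gene, and other genes keep theirs. Of 14024 tested genes with an annotated 3′ UTR, Zeb1 left out, 12.9% were raised and 11.1% lowered. A perfect 8mer site of the miR-200b seed, CAGTATTA, was present in 581, of which 152 were raised (26.2%) and 33 lowered (5.68%), with a median log2 fold change of 0.12. The miR-200a site, CAGTGTTA, was present in 725, of which 155 were raised (21.4%) and 59 lowered (8.14%), with a median of 0.08. With at least 2 sites, 48 of 128 genes were raised (37.5%) and 6 lowered (4.69%). With no site 12% of 12784 genes were raised and 11.5% lowered. Site genes had a median UTR of 2648 and 2957 nt for the 2 seeds, against 1310 nt without a site. With at least 2 sites the median was 3715 nt. In 3 classes of UTR length of equal size, cut at 880 and 2121 nt, 13.3% of site genes and 7.8% of genes without a site were raised in the short, 16.7% and 11.3% in the middle and 26.1% and 17.7% in the long class. Within each class UTRs were still longer with a site, with medians of 598 against 441, 1598 against 1417 and 3650 against 3117 nt. The part of UTR length in these shares was not tested. Raised genes with a site included Peg10, Apc2, Map2, Gabrb1, Gabrg3 and Kcnh7, and lowered ones Col1a2.

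The share of raised genes was higher among long transcripts. It was 3.19% in the decile of genes with the shortest exons, of median 584 nt, and 22.4% in the decile with the longest, of median 11919 nt. The share of lowered genes was 6.11% and 10.1% in the same groups. The median log2 fold change over all genes went from −0.08 to 0.06 between them. With this trend removed 1965 genes were raised and 2048 lowered, and of 194 named genes 2 lost their calls, the kinase Wnk1 (0.20, adjusted p = 0.00356, and 0.09 with an adjusted p of 0.152 after removal) and the prohormone convertase Pcsk1 (0.23, adjusted p = 0.0455, and 0.20 with 0.0807). Pcsk1 also missed the threshold without WT replicate 1 or u and without 200M replicate 1, 2 or 3.

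**Figure D5:**
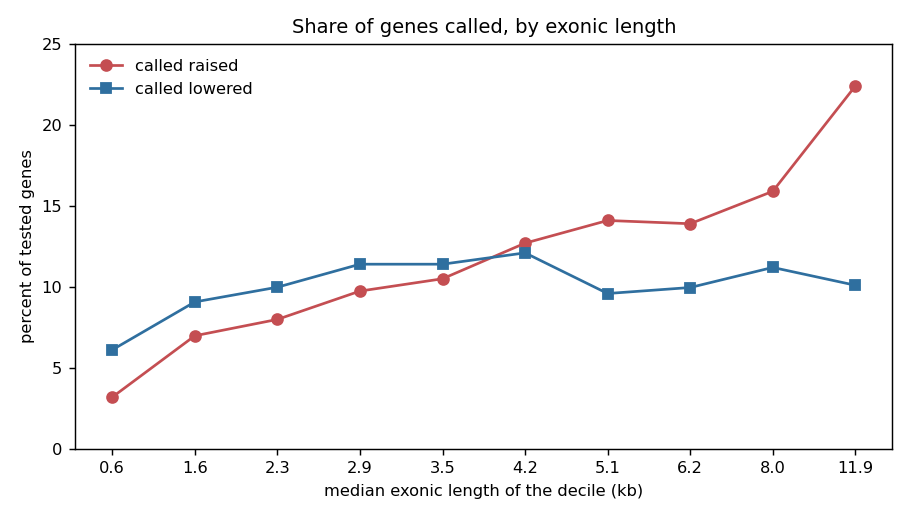
Percent of tested genes called raised (red circles) or lowered (blue squares) in 200M, by decile of exonic length, with the median length of each decile in kb on the x axis. The raised share climbs from 3.19% to 22.4%, and the lowered share stays between 6.11% and 12.1%.

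The same contrast in older females, aged 28 to 36 weeks after a breeding trial, gives values from other animals, with 4 WT and 3 200M pituitaries. Of 14711 genes tested there, 1768 were raised (12%) and 1436 lowered (9.76%), 3204 in all, or 1990 without 200M replicate 2 and 1999 without 200M replicate 3 of that cohort. Age, breeding history, library chemistry, strandedness and annotation all differ between the cohorts and cannot be told apart, so the values are given side by side. In log2 fold change, Zeb1 was at 0.55 in older (adjusted p = 0.000466) and 0.52 in young pituitary. Epcam was at −3.45 and −3.29, Esrp1 at −3.96 and −3.88, Nrsn2 at 2.65 and 3.23, Trank1 at 4.25 and 3.82, Lhb at −2.33 and −1.68 and Prl at −1.66 and −1.61, in older and young pituitary in that order.

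Of 1831 genes raised in young and tested in older pituitary, 1190 were raised in both, which is 65% of these and 69% of the 1725 raised in older. Of 1579 lowered in young, 860 were lowered in both, 54.5% of these and 61.6% of the 1397 lowered in older. Direction alone was shared by 97.6% of young raised and 95.9% of young lowered genes, and 1 gene in each set was called in the opposite direction. Of 10670 genes not called in young pituitary 10% were called in older. Some named genes were called in the young cohort but did not pass in older. Crhbp had −1.92 in older (adjusted p = 0.123), Cadps2 −0.13 (0.37), Dclk1 −0.29 (0.129), Drd2 −0.28 (0.115) and Tpx2 −0.64 (0.279), and whether these effects differ between the cohorts was not tested.

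The hypothalamus of the same cohort was compared as a second tissue. With 4 libraries of each genotype, edgeR called 0 of 14988 genes there, as did DESeq2, while 848 had an unadjusted p under 0.05 by edgeR. The depth was lower than in pituitary, at 3460427 to 5143128 counts. Zeb1 was at a mean of 227 CPM in WT and 202 CPM in 200M hypothalamus, which is a difference of −0.17 on the log2 scale (adjusted p = 0.866). The difference between the tissues was tested as an interaction, and for Zeb1 the effect was higher in pituitary by 0.69 (SE 0.10, adjusted p = 2.46e-06). Over 17789 genes the interaction was positive for 1214 (6.82%) and negative for 687 (3.86%). Of the genes raised in pituitary and tested for it, 1116 of 2111 had a positive interaction (52.9%), and of those lowered 601 of 1771 had a negative one (33.9%). In simulated data 67 genes were changed at 1.5-fold, 67 at 2-fold and 66 at 4-fold, far fewer than were called here. The shares found there may therefore differ from those in the real data. The interaction test found 13.4% of the 1.5-fold and 53.7% of the 2-fold changes, where the pituitary test found 49.3% and 83.6%. A gene without an interaction call is therefore not shown to change alike in both tissues.

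Among the named genes, the effect differed between the tissues by 3.12 for Nrsn2 (adjusted p = 8.47e-20), 1.91 for Dnm1 (1.02e-14) and −2.90 for Tmc4 (1.44e-13). Dnm1 was far higher in hypothalamus, at 578 CPM in WT and 552 CPM in 200M, than in pituitary of either genotype. Esrp1 and Rab25, which were barely detected in hypothalamus, at 0.174 and 0.726 CPM in WT, gave no such call (adjusted p = 0.776 and 0.59), and neither did Lhb (0.48).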

How the data were processed

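RNA-seq libraries of the young cohort were made by the authors from ribosomal-RNA-depleted, stranded RNA and sequenced from both ends on a NovaSeq instrument. The authors aligned reads with STAR 2.7.1a to mm10 (GRCm38) and counted them per gene with featureCounts on the reverse strand of GENCODE vM25 basic genes. The older pituitary libraries were poly(A)-selected, unstranded and counted with HTSeq 0.9.1 on Ensembl genes. The deposited values used here are these raw counts, for 55401 gene IDs in young tissue, from 4 of 18 tables. Other columns, which hold the fold changes and p-values of the authors' own DESeq2 tests, were not used.

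The robust quasi-likelihood F test of edgeR (4.0.16, with limma 3.58.1 in R 4.3.3) was applied to the counts of 4 200M and 3 WT libraries, with TMM scaling, filterByExpr and Benjamini-Hochberg adjustment over all 18199 genes. A gene was called at an adjusted p under 0.05, and "raised" and "lowered" refer to such calls. The SE is the size of the log2 fold change divided by the square root of its F. The interaction was fitted over pituitary and hypothalamus libraries together. DESeq2 1.42.0 was 1 of the alternatives, with other scalings and filters, a length correction, all 3 genotypes in 1 fit, a replicate block and each library left out in turn. The fit was tested on simulated data. Replicates are different mice. Intervals and tests cover the spread between mice, and genes that share reads with copies or overlapping genes are uncertain.

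The gene lists and the genes named were chosen with earlier results of these data known. Named genes are the EMT factors, hormones, neurensins and miR-200 hosts, the 12 raised and 12 lowered of smallest p with groups that do not overlap, the 8 with the largest change each way at a mean of 5 CPM or more, the 8 most abundant called each way, and in each list up to 4 called each way and 2 not called. Some genes that this rule names are not reported here. Coordinates are of GENCODE M21 (GRCm38) and sequences of RefSeq (GRCm38.p6).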

Additional observations from a re-analysis of the deposited data

Results flagged for a closer look

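In 200M, 1 of the 4 libraries stood apart from the other three in 12 of 194 named genes, measured as its gap to the nearest library over the range of the group. Chance flags about 1 in 20 groups. The 200M replicate 4 library was the highest for Fos (0.944), Mest (0.935), Scn8a (0.886), Pdgfrb (0.87), Unc13b (0.866) and Thy1 (0.858), and the lowest for Nrsn1 (0.883). Replicate 1 was the lowest for Csf1r (0.968), Gabrb1 (0.912) and Prom2 (0.882), replicate 2 the lowest for Peg10 (0.913) and the highest for Pou1f1 (0.847).

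The 200M effect differed between young pituitary and young hypothalamus in 1901 genes by the interaction test of edgeR, and for Zeb1 by 0.69 on the log2 scale.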

How the results depend on the processing

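The count of genes called in young pituitary stayed within 1.5 times of 3971 under the other scalings and filters, DESeq2 (3279), all 3 genotypes in 1 fit (3677), the length correction (4013) and each library left out (2983 to 3884), while library totals alone changed the split of directions. The fit with a replicate block gave 2530. In it, WT replicate u, 200M replicate 3 and 200M replicate 4 each stood alone in a block. The genotype effect therefore rested on replicates 1 and 2 of each genotype. Deviations of same-numbered libraries had correlations of 0.0173 and 0.0104 over the 2 shared numbers, and those of other pairs ran from −0.0811 to 0.0702. With 2 such pairs, and no number for WT replicate u, it cannot be told whether the numbers link libraries. The block cost 24 of 194 named genes their calls, among them Lhb (−1.62, adjusted p = 0.0918), Prl (−1.43, adjusted p = 0.301), Crhbp, Akap6, Grin2b and Nr4a2, and left 12 ribosomal proteins lowered. It gave calls to 5 others, Fshb (−0.45, adjusted p = 0.00353), Mpp7 (−0.50, adjusted p = 0.00226), Snai2 (−0.67, adjusted p = 0.00635), Syn1 (0.25, adjusted p = 0.0238) and Tshb (0.60, adjusted p = 0.043). In older pituitary, leaving out a library gave 1990 to 3809 genes, with 1990 without 200M replicate 2 and 1999 without 200M replicate 3. The interaction with hypothalamus gave 1434 (block) to 2037 genes (DESeq2), and 1494 to 2032 with a library left out. Zeb1 kept its direction and call under every alternative tried.

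Some differences that had not passed changed sign. Under the block they were −0.02 for Gh, −0.03 for Snai1 and −0.31 for Pomc, and the last passed (adjusted p = 0.00213). Scaling by totals gave 0.07 for Rest and 0.09 for Tjp1, and no filter gave 0.00 for Tjp1. Pomc was 0.00 with RLE factors or with TMM without Prl and Gh and −0.01 with 3 genotypes. With a library left out the ranges were −0.03 to 0.17 for Cdh1, −1.93 to 0.20 for Egr1, −4.09 to 0.49 for Fos, −0.34 to 0.11 for Fshb, −0.12 to 0.14 for Pomc, −0.14 to 0.01 for Rest, −0.08 to 0.35 for Snai1 and −0.08 to 0.01 for Tjp1. With WT replicate 2 and 200M replicate 4 both left out, Cdh1 and Pomc were 0.00, Fshb 0.03 and Snai1 −0.06. Over all alternatives for named genes, 3073 values kept direction and call, 145 lost and 27 gained the call, and 25 changed sign. The cause was not tested.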
